A study of Homo sapiens with 4 samples.

Results

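The data compared 2 single treatments of KGN cells directly with each other: knockdown of the transcriptional co-activators YAP and TAZ, and exposure to 8Br-cAMP. Every probe set with 1 gene symbol entered the comparison, and each gene was read through its probe set with the highest mean log2 level over the 4 arrays. Of 19775 genes with such a probe set, 13349 were above the floor on at least 1 of the 2 arrays and were compared. The floor was 62.6, the median of the whole table, and every lower intensity was set to it before taking log2. A difference is the log2 level in siYT minus that in siNC+8Br-cAMP, so positive values are higher after knockdown and negative values are higher with 8Br-cAMP. Where one of the arrays was at the floor, its level is only bounded, and the fold is given as at least N-fold.

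KGN is a human line grown from an ovarian granulosa cell tumour, so the results are those of 1 transformed line. The siNC cells received a control siRNA at 10 nM and plain medium, and the siNC+8Br-cAMP cells received the same siRNA and then 0.5 mM 8Br-cAMP for 24 h. The siYT cells received siRNAs to YAP and TAZ at 5 nM each and plain medium, and the siYT+8Br-cAMP cells (the combined array) received both treatments. The medium with or without 8Br-cAMP was given 48 h after transfection in all 4 groups, so every group, controls included, was transfected. Each group held 1 Affymetrix HG-U133 Plus 2.0 array, hence no difference has a replicate check, no test was made and sizes alone are given. RNA came from whole cultures, in which fewer cells of a kind and less RNA per cell cannot be told apart.

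Granulosa cells surround the oocyte and make oestrogen when gonadotropins raise their cyclic AMP. Cyclic AMP activates protein kinase A, which phosphorylates the factor CREB and induces genes of steroid synthesis, and 8Br-cAMP is an analogue that enters cells and acts in its place. YAP and TAZ bind TEAD factors on DNA and support genes of growth, adhesion and division, and the kinases of the Hippo pathway hold them out of the nucleus. The comparison asks which genes each of the 2 treatments favours when given alone.

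The arrays had median intensities of 56.9 to 66.3 and the same 2% trimmed mean of 500.1. The ratio of 3' to 5' signal, a sign of RNA quality, was 1.14 for ACTB and 0.92 for GAPDH in siNC+8Br-cAMP against 1.12 and 0.888 in siYT. It was 1.07 and 0.962 in siNC and highest on the combined array, at 1.35 and 1.13. Its part in the levels on that array was not tested. The siRNA targets were low in siYT. YAP1 was 3.69-fold and WWTR1, the gene of TAZ, 6.86-fold lower there than in siNC+8Br-cAMP. Of the granulosa markers, FOXL2, INHA, CYP19A1, GATA4 and WT1 were above the floor, whereas the gonadotropin receptor gene FSHR and the steroidogenic factor gene NR5A1 were at the floor on both arrays. The leukocyte marker PTPRC, the epithelial markers EPCAM and CDH1, the endothelial markers CDH5 and VWF and the theca enzyme gene CYP17A1 were at the floor on both arrays as well. Other markers of these cell types were above the floor on at least 1 of the 2 arrays. These were 3 of 6 epithelial, 1 of 6 endothelial, 3 of 6 immune cell and 2 of 5 theca and Leydig markers on the platform. Of the epithelial markers, 1 was 2-fold higher in each state.

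The knockdown state favoured more genes than the 8Br-cAMP state. A total of 1131 genes (8.47%) were at least 2-fold higher in siYT and 835 (6.26%) were at least 2-fold higher in siNC+8Br-cAMP, together 1966 genes or 14.7%. The remaining 11383 genes (85.3%) differed by less than 2-fold, and the median difference over all genes compared was 0.02. At 4-fold the counts were 126 and 105, and at 8-fold they were 15 and 22, so the order turned for the largest sizes. Of the genes past 2-fold, 151 higher in siYT and 119 higher in siNC+8Br-cAMP rested on an array at the floor and are bounds.

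Sizes were read against how far probe sets of the same gene disagreed. This disagreement was computed for 3412 genes with 8566 probe sets that exceeded 4 times the floor on both arrays. The SD of a difference within a gene was 0.40, less than the 2-fold size of 1. Of 387 genes past 2-fold with at least 2 such probe sets, all probe sets of the gene pointed the same way in 337 (87.1%), and all reached 2-fold in 149 (38.5%). Probe sets of 1 array share a culture, hence variation between cultures is not in this spread.

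**Figure D1:**
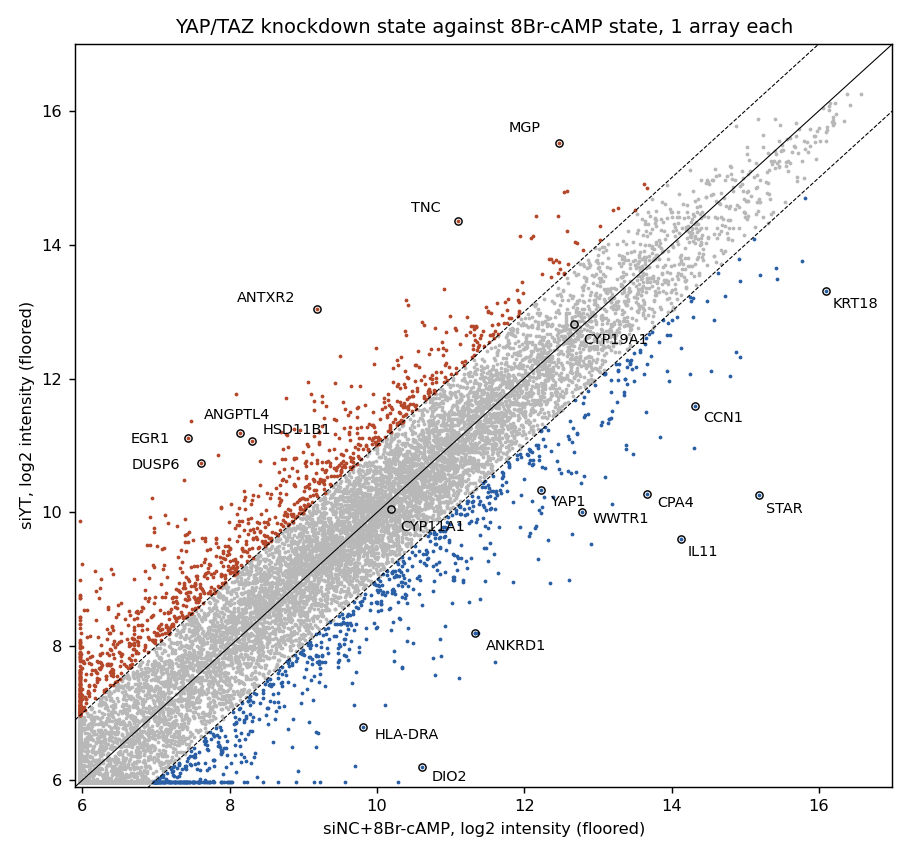
Each point is 1 of the 13349 genes compared, with its floored log2 intensity in siNC+8Br-cAMP on the horizontal axis and in siYT on the vertical axis. The solid line marks equal levels and the dashed lines 2-fold, red points (1131) are higher in siYT and blue points (835) in siNC+8Br-cAMP. STAR, IL11 and DIO2 lie far to the right of the line, MGP, TNC, ANTXR2 and EGR1 far above it, and CYP19A1 and CYP11A1 close to it. Points along the left and lower edges are genes at the floor on 1 array.

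The steroid synthesis genes showed what the states had in common and where they parted. CYP19A1, the aromatase that makes oestrogen from androgen, read 184 in siNC, 6558 with siNC+8Br-cAMP, 7213 in siYT and 24784 on the combined array. It was 39.2-fold higher in siYT and 35.7-fold higher in siNC+8Br-cAMP than in siNC, and the states differed from each other by 0.14, within the spread between probe sets. Its probe sets did not agree fully, since one that read below the floor in siNC gave 357 in siNC+8Br-cAMP and 761 in siYT, a difference of 1.09. CYP11A1, which cuts the cholesterol side chain in the first step of steroid synthesis, read 81.4, 1171, 1056 and 4518 on the arrays in the same order. Its levels in the 2 states were 1.11-fold apart, 12.98-fold higher in siYT and 14.4-fold higher in siNC+8Br-cAMP than in siNC. The highest array for both genes was the combined one.

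STAR, whose protein carries cholesterol to the inner mitochondrial membrane for CYP11A1, was the largest difference among genes above the floor on both arrays. It read 1284 in siNC, 37308 with siNC+8Br-cAMP, 1227 in siYT and 33335 on the combined array. The 2 arrays with 8Br-cAMP were high and the 2 without it were low, and siNC+8Br-cAMP exceeded siYT 30.4-fold. HSD3B2, which converts pregnenolone to progesterone, read 36.9, 364, 179 and 507 on the same 4 arrays, below the floor in siNC. Its level in siYT lay between siNC and siNC+8Br-cAMP, 2.03-fold below the latter.

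HSD11B1, which regenerates cortisol from cortisone, went the other way and read 229.9 in siNC, 316 with siNC+8Br-cAMP, 2137 in siYT and 2728 on the combined array. Both knockdown arrays were high and both control arrays low, and siYT was 6.77-fold above siNC+8Br-cAMP. SRD5A1, a steroid reductase that acts on testosterone and progesterone, read 441, 240.2, 685 and 235 and was 2.85-fold higher in siYT. STARD4, a carrier of cholesterol between membranes, read 1569, 539.7, 1325 and 313, which put siYT near siNC and the 8Br-cAMP arrays below both.

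The aldo-keto reductases AKR1C2 and AKR1C1, which inactivate progesterone and other steroids, were 3.37-fold and 2.44-fold higher in siNC+8Br-cAMP. AKR1C2 read 2824, 9082, 2699 and 3106 and was high on that array alone of the 4. The AKR1C genes are near-identical copies whose probes may cross-hybridise, and the mean over the AKR1C1 probe sets was -0.97, short of 2-fold. In all, 3 of 22 compared members of the steroid list were 2-fold higher in siYT and 4 in siNC+8Br-cAMP (13.6% and 18.2%, against 8.47% and 6.26% over all genes), with a median difference of -0.36.

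The machinery that makes, carries and removes cyclic AMP differed by at least 2-fold in 5 of 33 members, 2 higher in siYT and 3 higher in siNC+8Br-cAMP. These shares, 6.06% and 9.09% against 8.47% and 6.26% of all genes, were near the background. SIK1, a kinase that holds back the CREB co-activators and is itself a CREB target, read 1113 in siNC, 4585 with siNC+8Br-cAMP, 887 in siYT and 5934 on the combined array. The phosphodiesterases PDE7B and PDE4D, which break cyclic AMP down, were 4.1-fold and 2.43-fold higher in siNC+8Br-cAMP than in siYT. PDE7B read 196, 2086, 509 and 2162 on the 4 arrays, so the knockdown array was between siNC and the 2 arrays with 8Br-cAMP. Higher in siYT were PRKACA, a catalytic subunit of protein kinase A, at 117, 356, 748 and 586, and PKIA, its peptide inhibitor, at 889, 663, 1486 and 1589. PRKACA was 2.1-fold higher in siYT but 0.70 by the mean over its probe sets.

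Genes known as CREB targets split between the states, with 11 of 41 members higher in siNC+8Br-cAMP, 10 of 41 higher in siYT (26.8% and 24.4%, against 6.26% and 8.47% of all genes) and a median difference of -0.31. On the 8Br-cAMP side were DIO2, the deiodinase that activates thyroid hormone (106 in siNC, 1566 with siNC+8Br-cAMP, 73.4 in siYT and 4576 on the combined array), and the neurotrophin BDNF (5691, 14677, 2228 and 12956). The 5 DIO2 probe sets above the floor all pointed to 8Br-cAMP, with differences of -4.42 to -0.90. INHBA, the subunit of activin A, read 17150, 31170, 5097 and 33512, and SGK1, a kinase of ion transport and survival, read 10724, 29979, 5421 and 35990. For BDNF, INHBA and SGK1 siYT was below siNC as well as below siNC+8Br-cAMP, and the combined array was close to siNC+8Br-cAMP. On the knockdown side the first was EGR1, an immediate early transcription factor, at 556 in siNC, 173 with siNC+8Br-cAMP, 2219 in siYT and 239 on the combined array. EGR1 was 3.99-fold higher in siYT and 3.2-fold lower in siNC+8Br-cAMP than in siNC, and its 3 probe sets differed by 2.43 to 3.77 between the states.

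CREB binds a palindrome, the full cyclic AMP response element TGACGTCA, which reads the same on both strands and contains the shorter element TGACG. The 250 bases before the first listed start were searched in the RefSeq promoters (GRCh38.p14) of 10808 compared genes. The full element was present in 2.78% of them, in 22 of 678 genes higher in siNC+8Br-cAMP (3.24%) and in 17 of 889 genes higher in siYT (1.91%). PDE7B, DUSP1 and CCNA2 are shown because each named gene was higher in siNC+8Br-cAMP and holds the element, which is in capitals. The promoters lie at chr6:135851451-135851700, plus strand, chr5:172771196-172771445, minus strand, and chr4:121823884-121824133, minus strand, in this order.
PDE7B: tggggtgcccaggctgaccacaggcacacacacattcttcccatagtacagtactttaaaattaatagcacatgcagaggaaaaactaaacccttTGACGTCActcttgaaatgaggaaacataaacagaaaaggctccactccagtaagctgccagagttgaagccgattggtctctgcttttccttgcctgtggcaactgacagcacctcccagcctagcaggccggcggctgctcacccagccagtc
DUSP1: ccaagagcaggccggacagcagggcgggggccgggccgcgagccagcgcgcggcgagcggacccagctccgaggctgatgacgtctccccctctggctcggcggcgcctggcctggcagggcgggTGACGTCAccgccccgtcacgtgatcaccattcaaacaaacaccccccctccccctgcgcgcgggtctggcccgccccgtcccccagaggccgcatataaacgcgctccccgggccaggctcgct
CCNA2: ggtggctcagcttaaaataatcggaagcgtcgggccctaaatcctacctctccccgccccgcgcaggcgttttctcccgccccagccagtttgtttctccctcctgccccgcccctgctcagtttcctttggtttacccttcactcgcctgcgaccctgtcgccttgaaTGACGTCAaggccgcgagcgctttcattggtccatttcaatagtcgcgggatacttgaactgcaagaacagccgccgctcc

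The element lies 155 to 148 bases before the start in PDE7B, 125 to 118 in DUSP1 and 81 to 74 in CCNA2. The levels of these genes were not alike. DUSP1, a phosphatase that switches off MAP kinases, read 10254, 27147, 9593 and 30724 on the arrays in the order used above, high on the 2 arrays with 8Br-cAMP. CCNA2, the cyclin of S and G2 phase, read 2920.4, 2834, 505 and 289, level between the control arrays and low on both knockdown arrays. DUSP8, another MAP kinase phosphatase, holds the same element at 2 places and was 3.76-fold higher in siYT, so the letters were found on both sides of the comparison. A match is a run of letters in a reference window and no measure of binding.

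YAP/TAZ target genes lay mostly on the 8Br-cAMP side, that is, they were lower in siYT. Of 33 compared members, 12 were 2-fold higher in siNC+8Br-cAMP (36.4%, against 6.26% of all genes) and 1 was higher in siYT, with a median difference of -0.76. ANKRD1, an ankyrin-repeat protein used as a readout of YAP, read 5855 in siNC, 2581 with siNC+8Br-cAMP, 292 in siYT and 82.9 on the combined array. It was 2.27-fold lower in siNC+8Br-cAMP than in siNC and 20.04-fold lower in siYT, so the states differed 8.83-fold although both were below the untreated array. AMOTL2, which binds and restrains YAP, read 10331, 4835, 1081 and 751 in the same pattern.

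CCN1 and CCN2 encode secreted matrix-associated proteins and are widely used targets of YAP. CCN1 read 25904 in siNC, 20358 with siNC+8Br-cAMP, 3087 in siYT and 1696 on the combined array, and CCN2 read 48232, 44255, 11463 and 3888. In both, siNC+8Br-cAMP was near siNC and siYT was low, 6.59-fold and 3.86-fold below siNC+8Br-cAMP. F3, the tissue factor that starts clotting, read 9401, 10505, 3471 and 3597, and KRT18, an epithelial keratin, read 48635, 69798, 10098 and 10131, again with the 2 knockdown arrays low. KRT18 was read by a probe set that may also bind near-identical copies of the gene. Of the remaining members, GADD45B, BIRC5, ANLN, ARHGAP29, EDN1 and CRIM1 were 2.05-fold to 4.04-fold higher in siNC+8Br-cAMP. GADD45B fell short of 2-fold without probe sets shared between transcripts (-0.28), and CRIM1 did so under both normalizations between arrays. One of the 4 BIRC5 probe sets above the floor pointed the other way (0.68). The other probe set above the floor gave -0.61 for ARHGAP29 and -0.96 for EDN1, both under 2-fold. CAV1, the coat protein of caveolae, was the exception at 20373, 6744, 16712 and 5494. It was 3.02-fold lower in siNC+8Br-cAMP than in siNC and 1.22-fold lower in siYT.

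TEAD factors bind the letters GGAATG, searched on both strands (CATTCC on the other). They occurred in 9.62% of the compared promoters, in 11.1% of those higher in siNC+8Br-cAMP, in 9.22% of those higher in siYT and in 7 of 24 YAP/TAZ target promoters (29.2%). Among genes at least 4-fold apart the order of the states was the other way round, with 9 of 84 promoters (10.7%) on the siNC+8Br-cAMP side and 12 of 91 (13.2%) on the siYT side. ANKRD1, CCN2 and CPA4 are shown because their levels were low on both knockdown arrays and their windows hold the letters, in capitals on either strand. They lie at chr10:90921088-90921337, minus strand, chr6:131951373-131951622, minus strand, and chr7:130292911-130293160, plus strand, in this order.
ANKRD1: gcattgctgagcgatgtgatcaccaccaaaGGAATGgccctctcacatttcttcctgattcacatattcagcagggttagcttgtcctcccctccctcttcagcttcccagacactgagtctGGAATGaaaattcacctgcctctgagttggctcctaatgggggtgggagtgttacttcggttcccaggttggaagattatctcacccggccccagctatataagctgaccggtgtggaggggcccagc
CCN2: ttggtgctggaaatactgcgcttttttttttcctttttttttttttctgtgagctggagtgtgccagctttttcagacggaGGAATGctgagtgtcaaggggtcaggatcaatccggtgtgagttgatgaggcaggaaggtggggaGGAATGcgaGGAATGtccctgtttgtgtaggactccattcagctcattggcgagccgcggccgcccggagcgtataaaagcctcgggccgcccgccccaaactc
CPA4: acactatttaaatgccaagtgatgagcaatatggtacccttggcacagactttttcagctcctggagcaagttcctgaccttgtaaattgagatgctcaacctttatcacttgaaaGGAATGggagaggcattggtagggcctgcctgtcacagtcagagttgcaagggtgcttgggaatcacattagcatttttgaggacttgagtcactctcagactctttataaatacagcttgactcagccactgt

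ANKRD1 holds 2 matches, CCN2 3 and CPA4 1. CPA4 is a secreted carboxypeptidase that was not on the YAP/TAZ target list, and it read 14806 in siNC, 12981 with siNC+8Br-cAMP, 1235 in siYT and 1303 on the combined array. Its 2 control arrays were level with each other and its 2 knockdown arrays were level with each other, 10.5-fold apart between the states compared. No full cyclic AMP response element was found in the 24 YAP/TAZ target promoters, which says only that those letters are not in these windows.

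Among the Hippo pathway genes, 4 of 35 were higher in siYT and 5 in siNC+8Br-cAMP (11.4% and 14.3%, against 8.47% and 6.26% of all genes). The median was 0.02 and turned to -0.30 without probe sets shared between transcripts, which left 27 members. Beside the 2 siRNA targets and AMOTL2, the scaffold gene WWC1 was 2.18-fold and the TEAD cofactor gene VGLL3 2.04-fold higher in siNC+8Br-cAMP, both short of 2-fold by the mean over their probe sets. Higher in siYT was MAP4K4, a kinase that feeds the pathway, at 856 in siNC, 999 with siNC+8Br-cAMP, 4755 in siYT and 3292 on the combined array. VGLL4, a cofactor that competes with YAP for TEAD, read 1138, 591, 2347 and 2352 and was 3.97-fold higher in siYT. LATS1, the kinase that phosphorylates YAP, read 721, 358, 799.6 and 436, and the giant cadherin gene FAT4 read 773, 371, 952 and 132. For LATS1 and FAT4 siYT was close to siNC and siNC+8Br-cAMP was the lower array. One of the 4 MAP4K4 probe sets above the floor differed by 0.21, under the spread between probe sets.

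**Figure D2:**
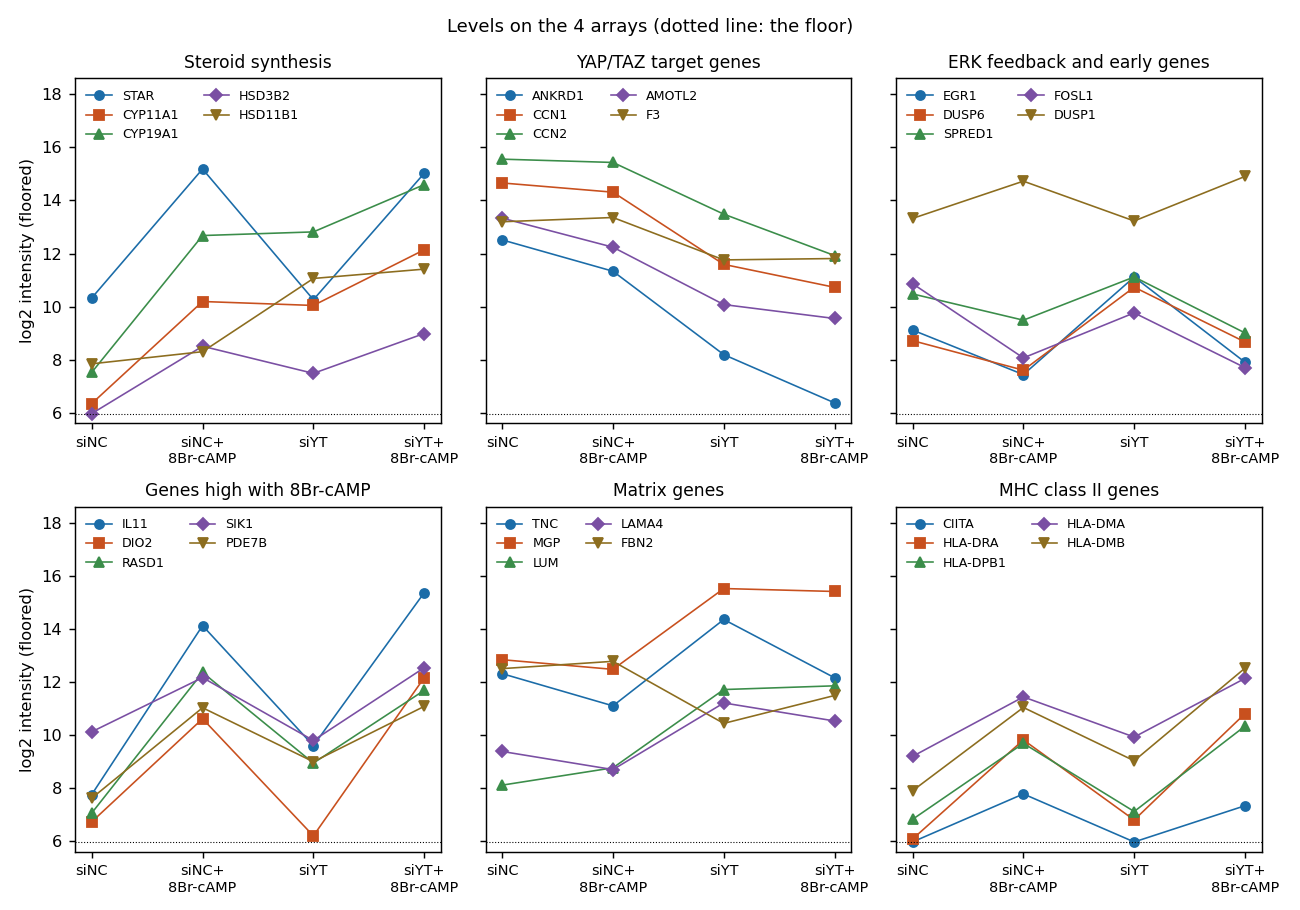
Floored log2 intensity of 5 genes per panel on the 4 arrays, 1 array per group, with lines that only link the values of 1 gene and the floor as a dotted line. STAR and the MHC class II genes are high on the 2 arrays with 8Br-cAMP, HSD11B1, MGP and LUM on the 2 knockdown arrays, and EGR1 and DUSP6 are highest in siYT alone. The YAP/TAZ target genes are low on both knockdown arrays.

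The cell division genes had the lowest median difference of the 30 lists. Of 40 mitosis genes, 34 (85.0%) were at least 2-fold higher in siNC+8Br-cAMP and none was 2-fold higher in siYT, against 6.26% and 8.47% of all genes, and the list's median difference was -1.47. Over the same members the median was -0.78 for siNC+8Br-cAMP against siNC and -2.37 for siYT against siNC. Both states were thus below the siNC array that they share, and siYT was further below it. Summed over the list, intensity was 102000 in siNC, 60120 with siNC+8Br-cAMP, 20480 in siYT and 16260 on the combined array.

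AURKA, the kinase of spindle poles, read 1243 in siNC, 1295 with siNC+8Br-cAMP, 204 in siYT and 374 on the combined array. KIF20A, a kinesin of cytokinesis, read 874, 589, 104 and 109, and CDC25B, the phosphatase that starts entry into mitosis, read 2262, 2291, 507 and 567. AURKA and CDC25B were nearly level between siNC and siNC+8Br-cAMP, KIF20A was 1.48-fold lower in the latter, and all 3 were low on both knockdown arrays. CEP55, which helps to cut the bridge between daughter cells, read 3585, 1558, 391 and 185 and was lower in both states, 2.3-fold lower in siNC+8Br-cAMP and 9.17-fold lower in siYT. ASPM, a spindle protein, was 4.16-fold higher in siNC+8Br-cAMP, but the log2 difference was -0.86 without shared probe sets.

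Promoters of mitotic genes often hold a CCAAT box, bound by NF-Y, and a cell cycle homology region with the letters TTTGAA, searched as TTCAAA on the other strand. Both occurred together in 18 of 35 mitosis promoters (51.4%) and in 3.51% of the promoters of all compared genes. They occurred together in 6.78% of the promoters of genes higher in siNC+8Br-cAMP, which include the mitosis genes, and in 2.25% of those higher in siYT. CEP55 is shown because it is a named mitosis gene with 1 copy of each motif, in capitals, at chr10:93496362-93496611, plus strand.
CEP55: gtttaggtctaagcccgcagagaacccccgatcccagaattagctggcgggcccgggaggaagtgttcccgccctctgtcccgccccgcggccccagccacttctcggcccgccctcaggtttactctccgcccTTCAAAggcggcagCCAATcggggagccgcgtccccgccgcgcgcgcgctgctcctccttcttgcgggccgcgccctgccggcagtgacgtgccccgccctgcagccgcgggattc

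**Figure D3:**
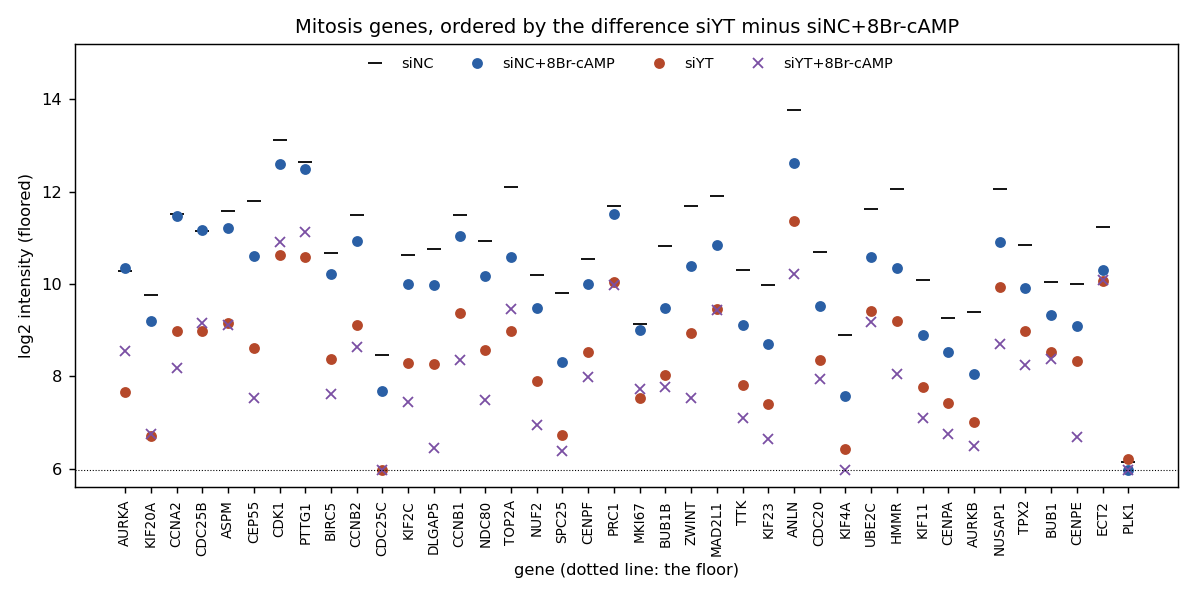
Floored log2 intensity of the 40 mitosis genes on the 4 arrays, ordered from the largest difference in favour of siNC+8Br-cAMP (AURKA) to the smallest. Blue points (siNC+8Br-cAMP) lie above red points (siYT) for all genes but PLK1, which was near the floor, and the bars for siNC lie at or above the blue points for most genes.

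Replication genes followed with less uniformity. Of 39 members, 11 (28.2%) were higher in siNC+8Br-cAMP and 2 (5.13%) in siYT, against 6.26% and 8.47% of all genes. The median was -0.76. CDK6, the G1 kinase partner of D cyclins, read 4322 in siNC, 4802 with siNC+8Br-cAMP, 1023 in siYT and 989 on the combined array, and 1 of its 6 probe sets above the floor pointed the other way (0.43). RRM2, the subunit of ribonucleotide reductase that limits DNA building blocks, read 8601, 5366, 1196 and 841, and the thymidine kinase TK1 read 1024, 993, 324 and 186. CDC45, part of the replicative helicase, was at least 3.52-fold higher in siNC+8Br-cAMP, with siYT below the floor. The 2 members higher in siYT were E2F7, a repressor of E2F targets, at 1552, 613, 3226 and 1138, and the cyclin gene CCND1 at 1047, 846, 2322 and 743. The other E2F7 probe set above the floor gave 0.51, under 2-fold. CCNE2, the cyclin of S phase entry, was low in both states, at 723, 147, 111 and 46.1. Its 2 probe sets above the floor differed by -0.40 and -1.49 between the states, so only the former put them close together.

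Arrest and p53 genes were mixed, with 2 of 21 higher in siYT and 3 in siNC+8Br-cAMP (9.52% and 14.3%, against 8.47% and 6.26% of all genes). PLK2, a kinase of the p53 response, read 18397 in siNC, 10709 with siNC+8Br-cAMP, 1972 in siYT and 1789 on the combined array. TP53INP1, which aids p53, read 935, 558, 1872 and 1110.1 and was 3.36-fold higher in siYT, and the anti-proliferative gene BTG1 read 10256, 5670.4, 13712 and 7979. SESN3, a sestrin, read 183, 605, 253 and 225 and was high in siNC+8Br-cAMP alone. The CDK inhibitor gene CDKN1A was 1.93-fold higher in siYT, below the 2-fold size.

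Matrix genes lay on the knockdown side. Of 39 collagens and small matrix proteins, 7 (17.9%) were higher in siYT and 2 (5.13%) in siNC+8Br-cAMP, against 8.47% and 6.26% of all genes. The median was 0.45. TNC, the adhesion-modulating glycoprotein tenascin C, read 5082 in siNC, 2191 with siNC+8Br-cAMP, 20922 in siYT and 4563 on the combined array. It was 4.12-fold higher in siYT and 2.32-fold lower in siNC+8Br-cAMP than in siNC, and its 3 probe sets differed by 2.11 to 3.26 between the states. MGP, an inhibitor of calcification, read 7318, 5685, 46956 and 43484, high on both knockdown arrays. LUM and DCN, small proteoglycans that bind collagen, read 276, 434, 3355 and 3698 and 165, 279, 1068 and 876. Without shared probe sets the difference was 0.55 for LUM and just under 2-fold for DCN. On the other side were FBN2, a fibrillin of elastic fibres, at 5796, 7013, 1386 and 2873, and FBLN1, a fibulin that was below the floor in siYT (at least 3.05-fold higher in siNC+8Br-cAMP). The other FBN2 probe set above the floor gave -0.49, under 2-fold.

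Genes of cell-matrix contact and matrix turnover were higher in siYT in 11 of 32 cases and higher in siNC+8Br-cAMP in 2. These shares were 34.4% and 6.25%, against 8.47% and 6.26% of all genes, and the median was 0.55. LAMA4, a laminin chain of basement membranes, read 666 in siNC, 415 with siNC+8Br-cAMP, 2365 in siYT and 1476 on the combined array, and TIMP3, an inhibitor of matrix proteases, read 2590.2, 612, 3437 and 913. LAMA4 was 3.55-fold higher in siYT than in siNC, while TIMP3 was 4.24-fold lower in siNC+8Br-cAMP, so the same side was reached from different arrays. Each had a probe set under 2-fold between the states, at 0.51 for LAMA4 and 0.47 for TIMP3. The gelatinase MMP2 and the integrin ITGB5 were 2.67-fold and 2.54-fold higher in siYT, the former short of 2-fold by the mean over its probe sets. CPA4 and NID1, a basement membrane linker at 1644, 1619.7, 597 and 434, were the 2 members on the 8Br-cAMP side.

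Markers of stroma and fibroblasts were on the same side as the matrix genes in part. Of the 7, PDGFRA, PDGFRB, DCN and LUM were 2-fold higher in siYT, whereas COL1A1, COL3A1 and THY1 differed by -0.16 to 0.36. PDGFRA, a platelet growth factor receptor, read 553, 548, 3493 and 687 on the 4 arrays and was high in siYT alone, and PDGFRB read 436, 379, 1239.5 and 1045. The other PDGFRA probe set above the floor gave 0.57, under 2-fold. The summed intensity of the 7 markers was 59520 in siNC+8Br-cAMP and 71970 in siYT, and their part in the matrix result was not tested.

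Genes of glycolysis and the hypoxia response were higher in siYT in 9 of 31 cases (29.0%, against 8.47% of all genes). None was 2-fold higher in siNC+8Br-cAMP (against 6.26% of all genes), and the median was 0.53. Without probe sets shared between transcripts, 18 members were left, 4 higher in siYT and 1 in siNC+8Br-cAMP, with a median of 0.47. Over all 10502 genes under that setting the counts were 982 and 650. PFKFB3, which makes the activator of the glycolytic enzyme phosphofructokinase, read 1135 in siNC, 537 with siNC+8Br-cAMP, 3953 in siYT and 3321 on the combined array. VEGFA, the vascular growth factor, read 8354, 5628, 22083 and 20423, and CA12, a carbonic anhydrase, read 2797, 3165, 8942 and 10893. For VEGFA and CA12 both knockdown arrays were above both control arrays, although 1 of the 6 CA12 probe sets above the floor gave -0.30. VEGFA was 1.48-fold lower and PFKFB3 2.11-fold lower in siNC+8Br-cAMP than in siNC. NDRG1, a hypoxia-induced gene, read 3419, 5161, 14104 and 24835 and was highest on the combined array. ADM, the vasodilator adrenomedullin, read 9108, 4051, 9966 and 14375, and PDK1, which slows entry of pyruvate into mitochondria, was 2.35-fold higher in siYT but 0.46 by the mean over its probe sets.

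Mitochondrial respiration genes leaned the opposite way by small steps. Of 33 members, 31 were lower in siYT than in siNC+8Br-cAMP by any size, against 6519 of 13349 genes compared, and the median was -0.56. Past 2-fold were 2 in favour of siNC+8Br-cAMP and 1 in favour of siYT. These shares, 6.06% and 3.03%, were no more than the 6.26% and 8.47% of all genes. ATP5MC1, a subunit of the ATP synthase ring, read 2021, 3109, 1058 and 1772, and the complex I gene NDUFB5 read 8619, 11071, 4834 and 6886. The exception NDUFA1 read 8789, 5645, 12228 and 5015. The median of the 23 ribosomal protein genes was -0.32, with 0 past 2-fold. After quantile normalization and cyclic loess the ribosomal median was -0.12 and -0.11, while the respiration median was -0.51 and -0.47.

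In fat metabolism, 3 of 27 members were higher in siYT and 2 in siNC+8Br-cAMP, and these shares, 11.1% and 7.41%, were close to those over all genes. ANGPTL4, a secreted inhibitor of lipoprotein lipase, read 106 in siNC, 282 with siNC+8Br-cAMP, 2325 in siYT and 3736 on the combined array, higher than siNC in both states and more so in siYT. The lipid droplet coat gene PLIN2 read 1164, 1511, 5442 and 5540, and the desaturase gene SCD read 12270, 9852, 24038 and 21739. PDK4, which spares glucose during fat use, read 306, 2924, 868 and 15930. It was higher than siNC in both states, more so with 8Br-cAMP, and highest on the combined array. One of the 3 PDK4 probe sets above the floor differed by -0.43 between the states, under 2-fold. Cholesterol genes gave 1 of 25 (4.0%) in each direction, below the 8.47% (siYT) and 6.26% (siNC+8Br-cAMP) of all genes. LSS, the enzyme that closes the sterol ring, read 3534, 624, 2714 and 611 and was low on both arrays with 8Br-cAMP, and SREBF1, a lipid regulator, was 2.42-fold higher in siNC+8Br-cAMP. The other SREBF1 probe set above the floor gave -0.34.

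The feedback genes of the MAP kinase pathway, which growth factors raise through ERK, had the highest median of the 30 lists, 0.75. Of 22 members, 10 (45.5%) were higher in siYT and 1 (4.55%) in siNC+8Br-cAMP, against 8.47% and 6.26% of all genes. DUSP6, the phosphatase specific for ERK, read 421 in siNC, 195 with siNC+8Br-cAMP, 1703 in siYT and 406 on the combined array, 4.04-fold higher in siYT and 2.17-fold lower in siNC+8Br-cAMP than in siNC. SPRED1, an inhibitor of the Ras to ERK step, read 1428, 719, 2224 and 515, and FOSL1, a partner of Jun, read 1866, 268, 871 and 208. FOSL1 was lower than siNC in both states and lowest on the arrays with 8Br-cAMP. DUSP8 read 187, 84.4, 317 and 146 and the ETS factor gene ETV1 104, 81.8, 233 and 172. SPRED1 and ETV1 each had a probe set under 2-fold, at 0.18 and 0.26. DUSP1, described above, was the member on the 8Br-cAMP side.

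Growth factor ligands, binding proteins and receptors gave 6 of 38 higher in siYT and 2 in siNC+8Br-cAMP (15.8% and 5.26%, against 8.47% and 6.26% of all genes). IGFBP4, which sequesters insulin-like growth factors and is cleaved as follicles become dominant, read 531 in siNC, 6269 with siNC+8Br-cAMP, 509 in siYT and 5200.5 on the combined array. It was level between siNC and siYT and high on the 2 arrays with 8Br-cAMP, 12.3-fold above siYT. NRP2, a co-receptor of semaphorins and vascular growth factors, read 5284, 6400.2, 2131 and 2316, and the growth factor gene PDGFD read 549, 1359, 3317 and 5872. PDGFD was higher than siNC in both states and highest on the combined array.

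In TGF-beta, BMP and activin signalling, 3 of 37 members were higher in siYT and 6 in siNC+8Br-cAMP (8.11% and 16.2%, against 8.47% and 6.26% of all genes). The receptor gene TGFBR1 read 3588 in siNC, 11360 with siNC+8Br-cAMP, 1882 in siYT and 1654 on the combined array, and FSTL3, which binds activin, read 1769, 2854, 711 and 728. Both were highest in siNC+8Br-cAMP and low on the 2 knockdown arrays. INHBA, described above, was 6.12-fold higher in siNC+8Br-cAMP and high on the combined array too. SMAD7, the inhibitory SMAD, read 755, 434, 2315 and 262 and was high in siYT alone. INHBB, the other activin beta subunit, read 189, 81.4, 377 and 148, which is the opposite direction to INHBA. LTBP1, which anchors latent TGF-beta in the matrix, read 1816, 1479.5, 4694 and 5045, and its other probe set pointed the other way (-0.21).

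The granulosa identity list held 4 of 22 members (18.2%) higher in each state, against 8.47% (siYT) and 6.26% (siNC+8Br-cAMP) of all genes. Its median was -0.35. INHA, the alpha subunit of inhibin, read 70.5 in siNC, 331 with siNC+8Br-cAMP, 66.1 in siYT and 208 on the combined array, and FOXL2, the factor that keeps granulosa cells from a testicular fate, read 659, 1470.3, 726 and 1765. Both were near siNC in siYT and high on the arrays with 8Br-cAMP, but INHA was close to the floor of 62.6 in siNC and siYT. NR2F1, an orphan nuclear receptor, read 393, 723, 1509 and 1607 and was higher than siNC in both states. The transcription factor genes IRX3 and RUNX2 were 2.38-fold and 2.6-fold higher in siYT, but the other RUNX2 probe set above the floor gave 0.06. Of the other cell types' markers, the Sertoli gene CLDN11 read 25029, 11099, 5792 and 2638, and the theca and Leydig peptide INSL3 read 156, 69.3, 213 and 268. Of the 2 Sertoli markers compared, 1 was higher in each state by any size and 0 reached 2-fold.

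Ovulation genes were divided as well, with 5 of 28 (17.9%) higher in each state, against 8.47% (siYT) and 6.26% (siNC+8Br-cAMP) of all genes. PTGES, which makes the ovulatory prostaglandin, read 134 in siNC, 541 with siNC+8Br-cAMP, 117 in siYT and 370.5 on the combined array, and its receptor gene PTGER4 read 551, 144, 915 and 101, in opposite directions. ADAMTS1, a protease that cuts the cumulus matrix, read 7851, 2899.7, 622 and 805 and was lower than siNC in both states, most in siYT. EDN2, the endothelin of the ovulating follicle, was above the floor with 8Br-cAMP and control siRNA at 405 and below it in siYT, at least 6.47-fold higher. BTC, an EGF-like ligand of the ovulatory cascade, read 436, 107, 369 and 91.7 and was low on the 2 arrays with 8Br-cAMP.

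Inflammatory genes favoured siYT in 12 of 28 cases (42.9%) and siNC+8Br-cAMP in 3 (10.7%), against 8.47% and 6.26% of all genes. The median was 0.39. CXCL1, a neutrophil chemokine, read 13015 in siNC, 1346 with siNC+8Br-cAMP, 6457 in siYT and 1800.2 on the combined array. It was 2.02-fold lower in siYT and 9.67-fold lower in siNC+8Br-cAMP than in siNC. CCL20, another chemokine, read 509, 66.9, 281 and 15.9 in the same order of arrays, and RELB, an NF-kappaB subunit, read 549.6, 208, 575 and 294. The list's median was -0.28 for siYT against siNC and -0.91 for siNC+8Br-cAMP against siNC, differences that share the siNC array. NFKBIA, the NF-kappaB inhibitor, was 3.32-fold higher in siYT, but 0.05 on the log2 scale without shared probe sets.

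The interleukin genes IL11 and IL6 ran against the list. IL11, a cytokine of the IL6 family, read 216 in siNC, 17829 with siNC+8Br-cAMP, 774 in siYT and 42102 on the combined array, 82.5-fold higher in siNC+8Br-cAMP than in siNC and 23.03-fold higher there than in siYT. Its 2 probe sets differed by -4.53 to -3.51 between the states. IL6 itself read 21840, 28316, 4212 and 1985, near siNC in siNC+8Br-cAMP and low on both knockdown arrays. CXCL12, a chemokine of stromal cells, was the third member on that side and 2.52-fold higher.

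Interferon-stimulated genes gave 6 of 28 (21.4%, against 8.47% of all genes) higher in siYT and none higher in siNC+8Br-cAMP, with a median of 0.25. IRF1, the factor that opens the response, read 1204 in siNC, 319 with siNC+8Br-cAMP, 1221 in siYT and 347 on the combined array, level between siNC and siYT and low on the arrays with 8Br-cAMP. IFIT2, OAS1 and OAS2, antiviral effectors, were 2.2-fold to 2.62-fold higher in siYT, but under 2-fold by the mean over their probe sets. GBP2, a guanylate-binding protein, read 730.0, 815, 1726 and 754 and was high in siYT alone.

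MHC class II genes were on the 8Br-cAMP side. Of 21 members of the MHC list, 6 (28.6%) were higher in siNC+8Br-cAMP and 1 (4.76%) in siYT, against 6.26% and 8.47% of all genes. CIITA, the master activator of class II genes, was 219.5 in siNC+8Br-cAMP and below the floor in siNC and siYT, at least 3.51-fold higher, although the mean over its probe sets gave -0.85. HLA-DRA, a chain of the presenting molecule, read 67.5 in siNC, 901 with siNC+8Br-cAMP, 111 in siYT and 1789.9 on the combined array, and HLA-DPB1 read 113, 823, 139 and 1291. HLA-DMB and HLA-DMA, which load peptides, read 239, 2101, 522 and 5872 and 585, 2768, 969.8 and 4494. All 4 HLA genes were highest on the combined array, and HLA-DMB was also 2.19-fold higher in siYT than in siNC. TAPBP, a class I loading protein, was the member higher in siYT at 3706, 2992, 8055 and 11349. The leukocyte markers CD14 and LAPTM5 read 94.3, 129.6, 14.96 and 7.06 and 117, 178, 86.6 and 55.3 in that order of arrays, while PTPRC, the defining leukocyte marker, was at the floor, and the part of other cells in the class II result was not tested.

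The list of amino acid response genes under ATF4 had a negative median against siNC in both states. Of 26 members, 5 (19.2%) were higher in siYT and 1 (3.85%) in siNC+8Br-cAMP, against 8.47% and 6.26% of all genes. The median was -0.73 for siYT against siNC and -0.88 for siNC+8Br-cAMP against siNC. DDIT3, a stress factor that promotes cell death, read 5118 in siNC, 635 with siNC+8Br-cAMP, 3095 in siYT and 892 on the combined array. TRIB3, an inhibitor of Akt, read 6824, 1316, 3876 and 1242, and ATF3 read 875, 212, 701 and 372. The cystine transporter gene SLC7A11 went the other way at 16641, 9869, 4479 and 1518. Chaperones of the endoplasmic reticulum gave 1 of 24 higher in siYT (4.17%, below the 8.47% of all genes) and none higher in siNC+8Br-cAMP. That gene, CALR, fell short of 2-fold with other choices of probe set.

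Antioxidant genes favoured siNC+8Br-cAMP in 6 of 28 cases (21.4%) and siYT in 2 (7.14%), against 6.26% and 8.47% of all genes. The median was -0.60. HMOX1, which degrades haem, read 15720 in siNC, 5115 with siNC+8Br-cAMP, 769 in siYT and 400.3 on the combined array. It was 3.07-fold lower in siNC+8Br-cAMP and 20.4-fold lower in siYT than in siNC. NQO1, a quinone reductase, read 39604, 43706, 12923 and 15167, and SRXN1, which repairs peroxiredoxins, read 7045, 6513, 1906 and 2756, level between the control arrays and low on the knockdown arrays. BACH1, a repressor of HMOX1 and other antioxidant genes, read 598, 271, 3489 and 319.7 and was high in siYT alone. BACH1 was read by 1 probe set above the floor, and the combined array, which also carried the YAP and TAZ siRNAs, was below siNC. The metallothionein MT1F was 2.52-fold higher in siNC+8Br-cAMP, one of several near-identical copies.

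Among secreted peptides and their receptors, 3 of 17 compared members were higher in siYT and 4 in siNC+8Br-cAMP (17.6% and 23.5%, against 8.47% and 6.26% of all genes). NPPB, a natriuretic peptide, read 2419 in siNC, 2652 with siNC+8Br-cAMP, 293 in siYT and 407 on the combined array, low on both knockdown arrays. NPR3, which clears natriuretic peptides, read 1542, 4334, 831 and 8771, high on both arrays with 8Br-cAMP. OXTR, the oxytocin receptor gene, read 3407, 1377, 475 and 139 and was lower than siNC in both states.

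**Figure D4:**
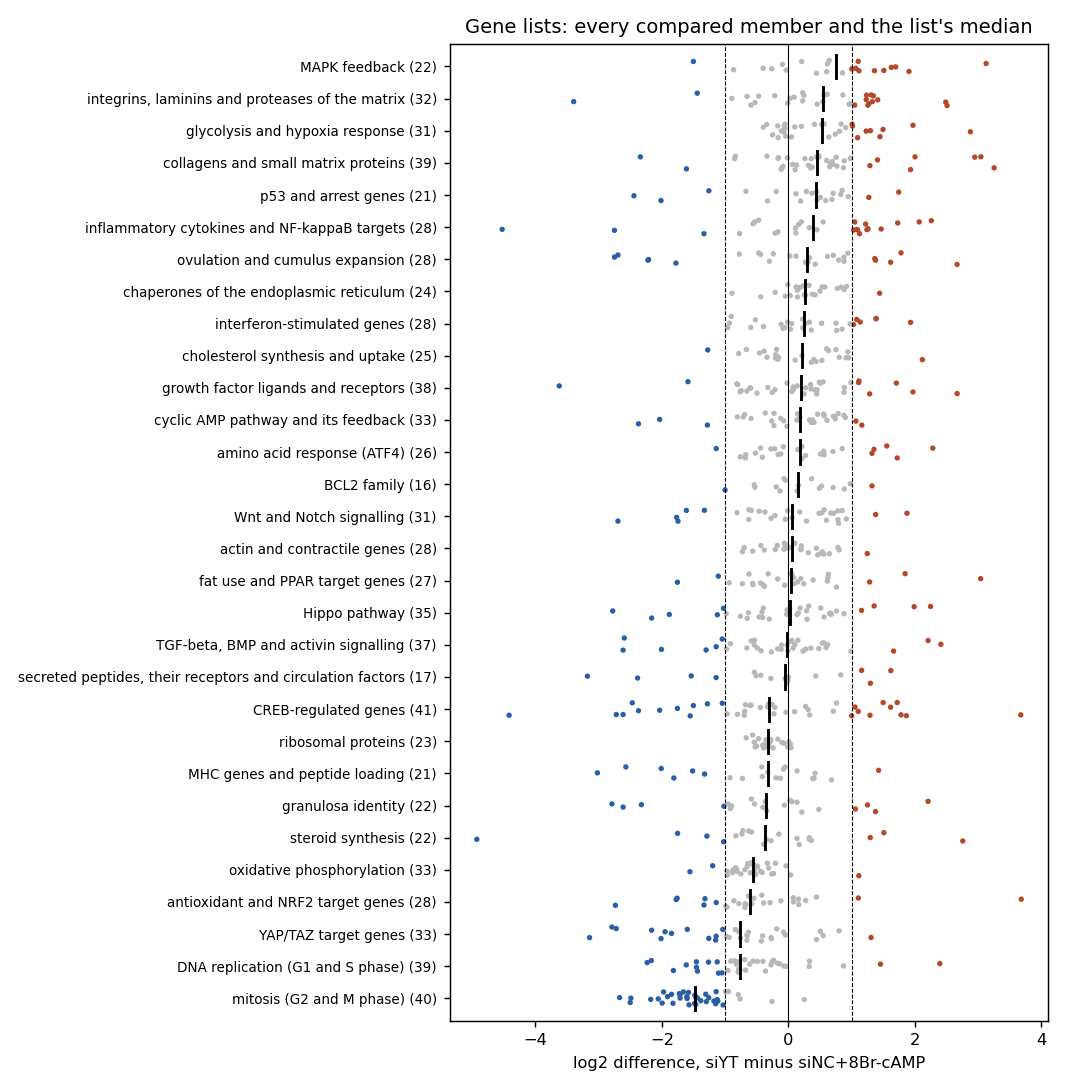
Log2 difference (siYT minus siNC+8Br-cAMP) of every compared member of the 30 gene lists, with the number compared in parentheses and the list's median as a black bar. Red points are at least 2-fold higher in siYT and blue points in siNC+8Br-cAMP, and members at the floor on 1 array stand at their bound. The mitosis list lies almost wholly below -1. The medians of the MAPK feedback, matrix contact and hypoxia lists lie to the right of 0, with members on both sides.

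Several of the genes with the largest differences belonged to no list. Higher in siYT, EVI2A, a membrane protein gene set within an intron of NF1, read 1315 in siNC, 178 with siNC+8Br-cAMP, 2633 in siYT and 274 on the combined array, and ANTXR2, a receptor for matrix and for anthrax toxin, read 809.7, 581, 8425 and 5870.3. ANTXR2 was high on both knockdown arrays and EVI2A was low on both arrays with 8Br-cAMP. PLA2G4C, a phospholipase, read 514, 124, 1183 and 198, and GLDN, a myelinated nerve matrix protein, read 99.95, 167, 1438 and 1733. NEDD9, an adhesion scaffold, read 487, 121, 973 and 121, but its 3 probe sets differed by 0.43 to 3.01 between the states. IQCE, SYTL2 and IQGAP2 were 7.74-fold to 9.48-fold higher in siYT, although IQCE and SYTL2 each had a probe set under 2-fold. In siNC+8Br-cAMP, IQCE read 63.5 and IQGAP2 72.1, close to the floor of 62.6.

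Higher in siNC+8Br-cAMP, ALPL, the tissue-nonspecific alkaline phosphatase, read 371 in siNC, 3097 with siNC+8Br-cAMP, 219 in siYT and 1604 on the combined array. RASD1, a small G protein induced by dexamethasone, read 133, 5241, 491 and 3284 and was above siNC in both states, far more with 8Br-cAMP. RARRES1, a retinoic acid response gene, read 1877, 7705, 739 and 2511, and BEX1, a small adaptor of neural cells, read 11174, 20229, 1987 and 7917. For both, siYT was below siNC and siNC+8Br-cAMP above it. ADAMTS15, a matrix protease, read 174, 1765, 189 and 659. URB1, CASTOR2 and FAM107B were 8.74-fold to 12.01-fold higher in siNC+8Br-cAMP.

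Genes at the floor in one state have differences that are bounds. With siNC+8Br-cAMP at the floor, CNIH3, an auxiliary subunit of glutamate receptors, read 940.4 in siYT, at least 15.02-fold higher. SLC14A1, the urea transporter, read 437 in siYT and was below the floor on the 3 other arrays. PCDHB14, RAB39B, SEMA5B, MAP6, EPHB1 and TEX9 were at least 5.53-fold to at least 8.13-fold higher. With siYT at the floor, GALNT15, a sugar transferase of mucin glycans, read 83.8 in siNC, 1244 with siNC+8Br-cAMP, 48.3 in siYT and 1063 on the combined array, at least 19.9-fold higher in siNC+8Br-cAMP. CYP26B1, which degrades retinoic acid, read 599 in siNC+8Br-cAMP and 179 on the combined array and was below the floor on the other 2 arrays, as was HPD, an enzyme of tyrosine breakdown, at 757 and 334. CDH6, TMEM190, GNAL and S1PR5 were at least 4.82-fold to at least 9.01-fold higher. GALNT15, CDH6, MAP6, EPHB1 and TEX9 each had a further probe set that differed by less than 2-fold.

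Some genes left siNC by a similar distance in both states, as CYP19A1 and CYP11A1 did. TMOD1, which caps actin filaments, read 372 in siNC, 2704 with siNC+8Br-cAMP, 2956 in siYT and 4624 on the combined array, and AADAC, a lipid esterase, read 18.1, 394, 459 and 645, below the floor in siNC. TMEM254 read 31.3, 391, 356 and 463 likewise. On the low side were CEMIP, which breaks down hyaluronan, at 2214, 246, 332 and 52.9, and PTX3, a pentraxin that stabilises the cumulus matrix, at 18913, 2939.6, 3706 and 211. C1orf198 and CENPK, a kinetochore gene, read 6171, 1426, 1479.7 and 758 and 1424, 352, 296 and 96.4. In each of these genes the states were within log2 0.5 of each other, by the rule that chose them, and the combined array lay further from siNC than either state.

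The shared untreated array lay between the states for most genes past 2-fold. It was between them for 821 of 1131 genes higher in siYT, above both for 109 and below both for 201. For the 835 genes higher in siNC+8Br-cAMP it was between for 512, above both for 224 and below both for 99. Moves of 2-fold from siNC were counted only upward for the higher state and only downward for the lower state. Among genes higher in siYT, 471 had the upward move alone, 255 the downward move alone, 22 both and 383 neither. The 471 thus include genes such as ANGPTL4, which was more than 2-fold above siNC in both states. Among genes higher in siNC+8Br-cAMP, 232 had the upward move alone, 353 the downward move alone, 8 both and 242 neither. The 232 include IL11, which was also more than 2-fold above siNC in siYT. The 353 include ANKRD1, which was also more than 2-fold below siNC in siNC+8Br-cAMP. Genes on the 8Br-cAMP side were more often low after knockdown than high with 8Br-cAMP, by count on these arrays.

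When both treatments were given, neither state's level was the rule. The combined array was nearer to siYT than to siNC+8Br-cAMP for 525 of the 1131 genes higher in siYT (46.4%). It was nearer to siNC+8Br-cAMP for 333 of the 835 genes higher there (39.9%). STAR, IGFBP4 and SGK1 stayed near their 8Br-cAMP level on the combined array, MGP, ANTXR2 and GLDN near their knockdown level. EGR1, DUSP6, SMAD7 and BACH1, high in siYT, were near or below their siNC level on the combined array.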

How the data were processed

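Gene expression in 4 KGN cultures, 1 per group, was read on Affymetrix HG-U133 Plus 2.0 arrays from cRNA made with a kit that primes at the 3' end, per the labels' protocols. The deposited values are linear intensity values per probe set. Per the submitters' processing notes the tools were RMA and Affymetrix Expression Console. Their versions are not given in the sources used here. They do not look like RMA output, since they are linear, differ in distribution between arrays and have a 2% trimmed mean of 500.1 on every array, which is what scaling to a target of 500 leaves. How background was corrected and probes were summarised is unknown, and the number of arrays limits the precision.

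Values below 62.6 (log2 5.97) were set to that floor before log2, with no further normalization. The platform annotation gave 1 symbol to 41097 of 54675 probe sets, several to 1801 and none here to 11777. A check through gene identifiers matched 41043 and altered 0 symbols, and 54 kept the annotation's symbol. Genes without a probe set of 1 symbol were not analysed here. A gene's level is that of its probe set with the highest mean floored log2 level over the 4 arrays.

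No test was possible with 1 array per group, and a gene counted as higher at a log2 difference of 1. The members, the 30 gene lists and the 8 marker lists were chosen with earlier results of these data known. Genes were named by rule: the siRNA targets, the 15 largest differences each way among genes above the floor on both arrays, the 8 highest levels each way among genes at the floor on 1 array and at least 4-fold apart, all members past 2-fold of the steroid, cyclic AMP, YAP/TAZ, Hippo and granulosa lists, up to 6 members of each other list, and 10 genes alike in both states. Further list members named as exceptions, markers and the promoters shown were picked after their values were seen.

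Promoters were read from a RefSeq table (GRCh38.p14) as the 250 bases before the first listed start. The difference and the size rule were tested on simulated data. Alternatives were other floors, level filters, probe set rules and thresholds, and quantile and cyclic loess normalization. Tools were Python 3.11.15, numpy 2.4.6, pandas 2.3.3, scipy 1.17.1, matplotlib 3.10.9, and limma 3.58.1 in R 4.3.3.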

Additional observations from a re-analysis of the deposited data

How the results depend on the processing

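The counts of genes past the size rule depended on the floor and the threshold. With the floor at the 25th percentile of all values, 2215 genes were higher in siYT and 2023 in siNC+8Br-cAMP, and at the 75th percentile 541 and 448. At 1.5-fold they were 2623 and 2251. Under the other 7 settings both counts stayed within 1.5 times the values reported, with 1039 and 912 after quantile normalization and 1053 and 894 after cyclic loess. Genes higher in siYT made up 57.5% of the calls, and 52.3% to 60.2% under the alternatives. With the floor at the 75th percentile the list medians moved by more than the spread between probe sets for DNA replication (-0.27), Wnt and Notch signalling (0.49) and secreted peptides (-0.91). No other list median moved by that much. The medians of the Hippo, fat use, actin, TGF-beta and Wnt lists, all near 0, changed sign under at least 1 setting, to between -0.30 and 0.10.

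Of 184 named genes past 2-fold, 153 stayed past it in the same direction under every alternative that gave them a value. The 5 alternatives were of probe set choice and normalization. A gene without a value under one of them was judged on the others, so the 153 include genes not checked without shared probe sets. The mean over probe sets brought 27 under 2-fold, and leaving out probe sets shared between transcripts brought 10 under it, left 37 without a value and turned 1 around, WNT4, whose difference was 0.0487. The cause was not tested. No paired analysis was possible because each group held 1 array, and leaving out a replicate had no meaning for the same reason. Variation between cultures was not measured, and levels near the floor bound a difference and do not measure it.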

Other observations

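Wnt and Notch genes gave 2 of 31 higher in siYT and 5 in siNC+8Br-cAMP (6.45% and 16.1%, against 8.47% and 6.26% of all genes). SFRP1, a secreted Wnt antagonist, read 520.2 in siNC, 2694 with siNC+8Br-cAMP, 416 in siYT and 5065 on the combined array, high on both arrays with 8Br-cAMP, and the Wnt receptor gene FZD4 read 659.6, 2173, 649 and 1510.2 in the same pattern. One of the 3 SFRP1 probe sets above the floor gave -0.61, under 2-fold. SFRP4, a related antagonist, was on the other side at 375, 316, 1163 and 578, as was HES1, a Notch target, at 163, 254, 662 and 1681. WNT2B was high in siNC+8Br-cAMP alone at 89.5, 284, 83.5 and 78.6. DKK1, another antagonist, read 15795, 11328, 4517 and 5773 and was low on both knockdown arrays.

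Actin and contractile genes were close to level between the states, with a median of 0.06. Past 2-fold was 1 of 28, higher in siYT (3.57%, below the 8.47% of all genes). That gene was TGFB1I1, an adhesion adaptor, at 1777, 482, 1146 and 479 in the same order. In the BCL2 family 1 of 16 (6.25%) passed in each direction, no more than the 8.47% (siYT) and 6.26% (siNC+8Br-cAMP) of all genes. BCL2L1, which protects from apoptosis, read 1233, 660.5, 1654 and 799.7, with 1 probe set the other way (-0.24), and BCL2 itself read 323, 125, 54.6 and 47.8, with both knockdown arrays below the floor. BMF, a pro-apoptotic member, read 10.9, 33.5, 116 and 360.5, highest on the combined array.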
